A study of Mus musculus with 28 samples.

Results

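Fatty acid-binding proteins are small cytosolic carriers of long-chain fatty acids, and 5 genes of the family, Fabp1, Fabp3, Fabp4, Fabp5 and Fabp7, are described here in mouse renal dendritic cells. They were taken from the 19272 gene symbols of the array table as the probesets mapped to 1 of these symbols only, with the brightest probeset kept for each gene. The 5 genes were chosen because of their levels in these same arrays. Their levels and differences are therefore given as a description, without tests.

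The study sorted CD11c+ MHCII+ dendritic cells, the antigen-presenting leukocytes of the kidney, from cortex (the outer zone) and medulla (the inner zone), and measured their amplified RNA on 28 Affymetrix arrays from 11 mice. Homeostatic kidneys of C57BL/6 mice gave 4 arrays of cortex and 4 of medulla, and homeostatic kidneys of BALB/c mice gave the same numbers, all gated on CD45. Kidney allografts taken 3 days after transplantation gave CD45.2+ donor cells, labelled BALB/c, and CD45.1+ host cells, labelled C57BL/6, with 3 arrays for each origin and region. Donor and host cells of both regions came from the same 3 mice, so donor and host were always sorted from 1 graft and share its tissue. The labels name no sham-operated kidney, so transplantation and the operation cannot be told apart, and they state no age for the mice. Donor cells were set against homeostatic BALB/c cells and host cells against homeostatic C57BL/6 cells; comparisons that name the same group share its arrays.

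In cells, these proteins take up fatty acids that enter through the membrane or are released from lipid droplets, and hand them to mitochondria, to the endoplasmic reticulum or to nuclear receptors of the PPAR family. Each member is named for the tissue where it was first found: Fabp1 in liver, Fabp3 in heart and muscle, Fabp4 in adipocytes and macrophages, Fabp5 in epidermis and Fabp7 in brain, where it marks radial glia and astrocytes. In kidney, the proximal tubule of the cortex and the thick ascending limb live largely on fatty acid oxidation, and dendritic cells and macrophages use fatty acid-binding proteins in lipid storage.

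The 250 bases before the annotated start are shown for the pair of members whose groups lay furthest apart, so that the sequence beside the contrasting patterns of this pair can be read. They are RefSeq sequences of the mouse build GRCm38.p6, Fabp7 at chr10:57784673-57784922 and Fabp3 at chr4:130308488-130308737, both on the plus strand and written 5′ to 3′. The capitals mark TGACCT, the nuclear receptor half-site AGGTCA read on the opposite strand. RefSeq places Fabp7 between Pkib and Smpdl3a on chromosome 10 and Fabp3 between Serinc2 and Zcchc17 on chromosome 4, whereas Fabp5 and Fabp4 lie in 1 cluster on chromosome 3 with Pmp2, Fabp9 and Fabp12.
Fabp7: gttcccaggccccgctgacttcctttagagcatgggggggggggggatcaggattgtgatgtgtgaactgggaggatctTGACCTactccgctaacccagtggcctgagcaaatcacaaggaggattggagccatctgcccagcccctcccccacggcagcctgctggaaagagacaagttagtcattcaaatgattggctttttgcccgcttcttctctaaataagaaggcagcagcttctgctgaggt
Fabp3: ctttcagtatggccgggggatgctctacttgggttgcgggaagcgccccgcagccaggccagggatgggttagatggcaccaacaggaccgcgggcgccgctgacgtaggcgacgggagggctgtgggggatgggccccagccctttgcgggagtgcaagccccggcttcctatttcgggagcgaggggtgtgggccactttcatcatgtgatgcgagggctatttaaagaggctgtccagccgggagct
The half-site, searched on both strands, occurred once in the Fabp7 window, at position -171 counted back from the start, and was not found in the Fabp3 window. It occurred in 4607 of 32851 promoter windows of this length (14%). The Fabp1 window held 2 half-sites, at positions -67 and -9, and a TATA box (TATAAA) at position -30, which 12.4% of windows held. The DR1 element that PPAR receptors bind is a pair of such half-sites 1 base apart. It was searched on both strands in 1 order only, the exact half-site first and some letters of the second left open. This form was found in 0.234% of windows and in none of these 3. The other order, with the exact half-site second, was not searched. The Fabp1 window holds a pair of that order, TGACCT at -67 followed after 1 base by TGGCCT. These matches describe letters only.

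Fabp7 was high in the cortex of grafts and low everywhere else. In the 3 donor cortex arrays its log2 signal was 12.33, 11.54 and 10.53 (11.47 ± 0.90, SD, n = 3), and in the 3 host cortex arrays it was 11.79, 11.93 and 11.75 (11.83 ± 0.09, SD, n = 3). All 6 graft cortex arrays lay above every other array of the study. In medulla of the same grafts the signal was 7.22, 7.00 and 6.97 in donor cells and 6.67, 7.06 and 6.86 in host cells. Homeostatic C57BL/6 cells gave 6.73, 6.95, 7.04 and 6.98 in cortex and 7.20, 6.98, 7.10 and 7.28 in medulla. Homeostatic BALB/c cells gave 7.02, 7.38, 7.37 and 7.38 in cortex and 7.03, 7.26, 7.11 and 7.27 in medulla. The 22 arrays outside graft cortex thus spanned less than 1 log2 unit. All of them lay below the 40th percentile of their array, a level of 7.27 to 7.63 used here as the limit for dim genes, so Fabp7 passed the filter on dim genes through graft cortex alone. The deposited table carries no detection call, and whether any Fabp7 RNA was present in those 22 samples is not known.

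Expressed as differences of group means, Fabp7 was 4.18 ± 0.24 log2 units (SE of the fit) higher in donor cortex than in homeostatic BALB/c cortex and 4.90 ± 0.24 higher in host cortex than in homeostatic C57BL/6 cortex. The lower group of each comparison lay below the limit for dim genes in every array, so these are differences of signal, and no fold of RNA is given. Inside single grafts, medulla fell below cortex in all 6 pairs, by between 3.56 and 5.12 log2 units. The donor and host cortex groups overlapped, with a mean difference of -0.36 ± 0.26, and the donor was higher in mouse 6 (12.33 against 11.79) but lower in mouse 7 (11.54 against 11.93) and mouse 8 (10.53 against 11.75). In the order of group means, host cortex and donor cortex came first, 4.18 log2 units above homeostatic BALB/c cortex. The remaining 6 groups, from homeostatic BALB/c cortex (7.29) down to host medulla (6.86), overlapped each with its neighbour in that order.

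**Figure D1:**
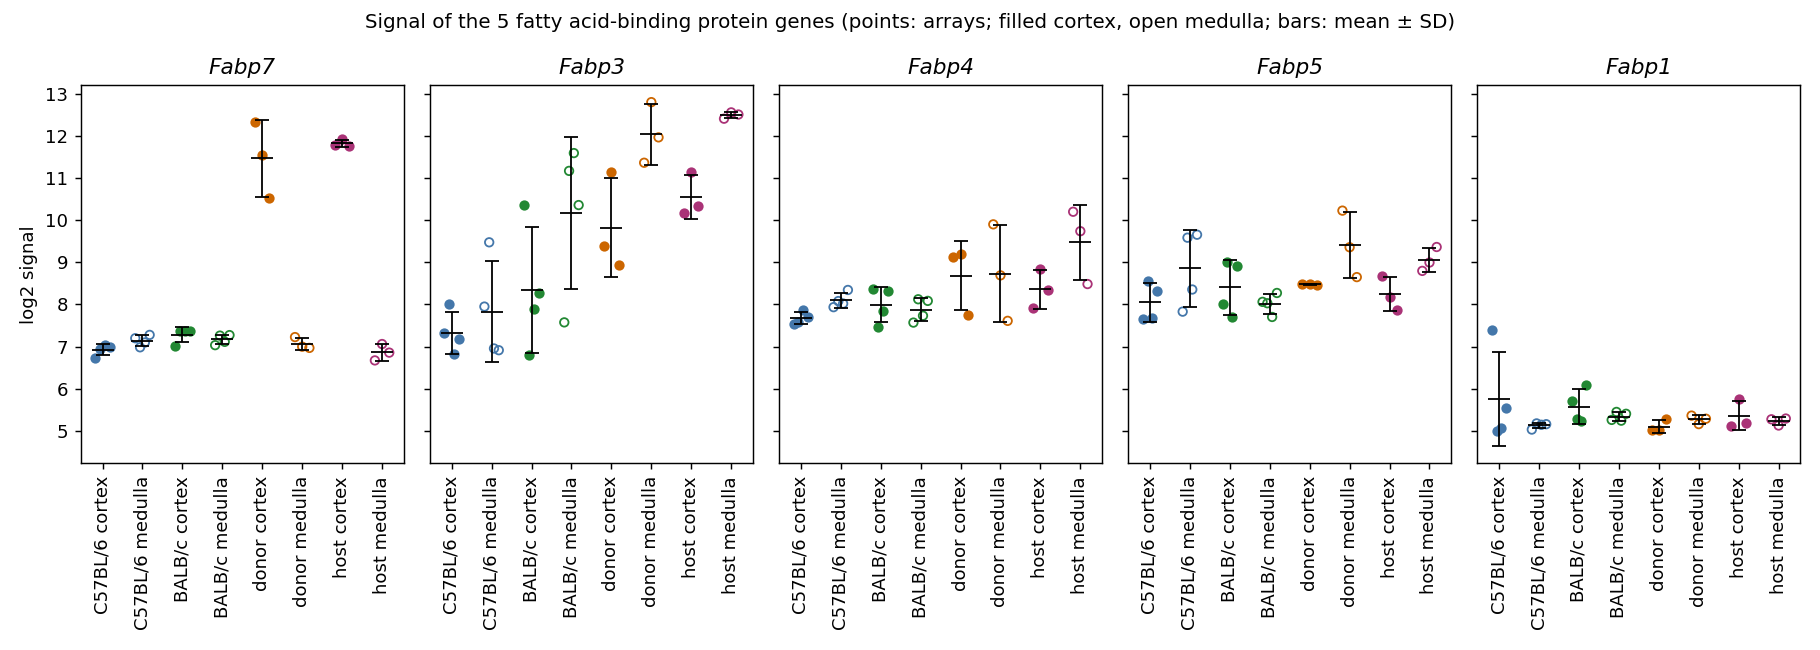
Log2 array signal (vertical axis) of Fabp7, Fabp3, Fabp4, Fabp5 and Fabp1 in the 8 groups (horizontal axis), with 1 point per array, filled for cortex and open for medulla, and bars for mean ± SD. Fabp7 stands at 10.53 to 12.33 in the 6 graft cortex arrays and at 6.67 to 7.38 elsewhere, Fabp3 is highest in graft medulla, and Fabp1 lies near 5 in nearly all arrays.

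Fabp3, the heart-type carrier that feeds fatty acids to mitochondria in oxidative tissue, was highest in medulla of grafts. Its signal was 12.41, 12.56 and 12.51 in host medulla (12.50 ± 0.08, SD, n = 3) and 11.37, 12.81 and 11.97 in donor medulla (12.05 ± 0.72). Graft cortex gave 10.18, 11.14 and 10.34 in host cells and 9.38, 11.15 and 8.93 in donor cells. Medulla was therefore higher than cortex in all 6 pairs from 1 graft, by 1.42 to 3.04 log2 units, and neither origin showed overlap between its regions. Homeostatic C57BL/6 arrays were lower, at 7.32, 8.00, 6.81 and 7.18 in cortex and 7.95, 9.48, 6.95 and 6.91 in medulla. These arrays lay below all graft arrays of their region. Homeostatic BALB/c arrays were the most scattered, at 10.37, 6.79, 7.90 and 8.28 in cortex and 7.57, 11.17, 11.60 and 10.36 in medulla.

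The mean Fabp3 difference between medulla and cortex was 2.23 ± 0.88 log2 units in donor cells and 1.94 ± 0.88 in host cells. Host cells exceeded homeostatic C57BL/6 cells by 3.23 ± 0.83 in cortex and by 4.67 ± 0.83 in medulla, with no overlap in either region. The homeostatic C57BL/6 level was itself near the limit for dim genes, with 1 of 4 cortex and 2 of 4 medulla arrays above it, and no fold is given. Donor cells exceeded homeostatic BALB/c cells by 1.49 ± 0.83 in cortex and 1.87 ± 0.83 in medulla, and both pairs of groups overlapped. Only the step from donor medulla to host cortex, 1.49 log2 units between means, separated neighbours in the order of the 8 groups without overlap. In homeostatic BALB/c mice, medulla exceeded cortex by 4.38, 3.70 and 2.08 in mice 10, 11 and 12 and was lower by 2.80 in mouse 9. The medulla array of mouse 9 also stood apart in general: its mean correlation with the other arrays of its group was 0.613 over the genes tested, and the other arrays of that group had 0.721 to 0.738. Without this array, homeostatic BALB/c medulla exceeded cortex by 2.71 in place of 1.84 log2 units.

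A second Fabp3 probeset followed the first over the 28 arrays, with a Pearson r of 0.978 and a largest gap of 1.57 log2 units. RefSeq lists a processed copy, Fabp3-ps1, and a copy of Fabp5, Fabp5l2. Signal of either copy cannot be told apart from that of its parent gene here. Fabp5 likewise has 2 probesets, with an r of 0.963.

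**Figure D2:**
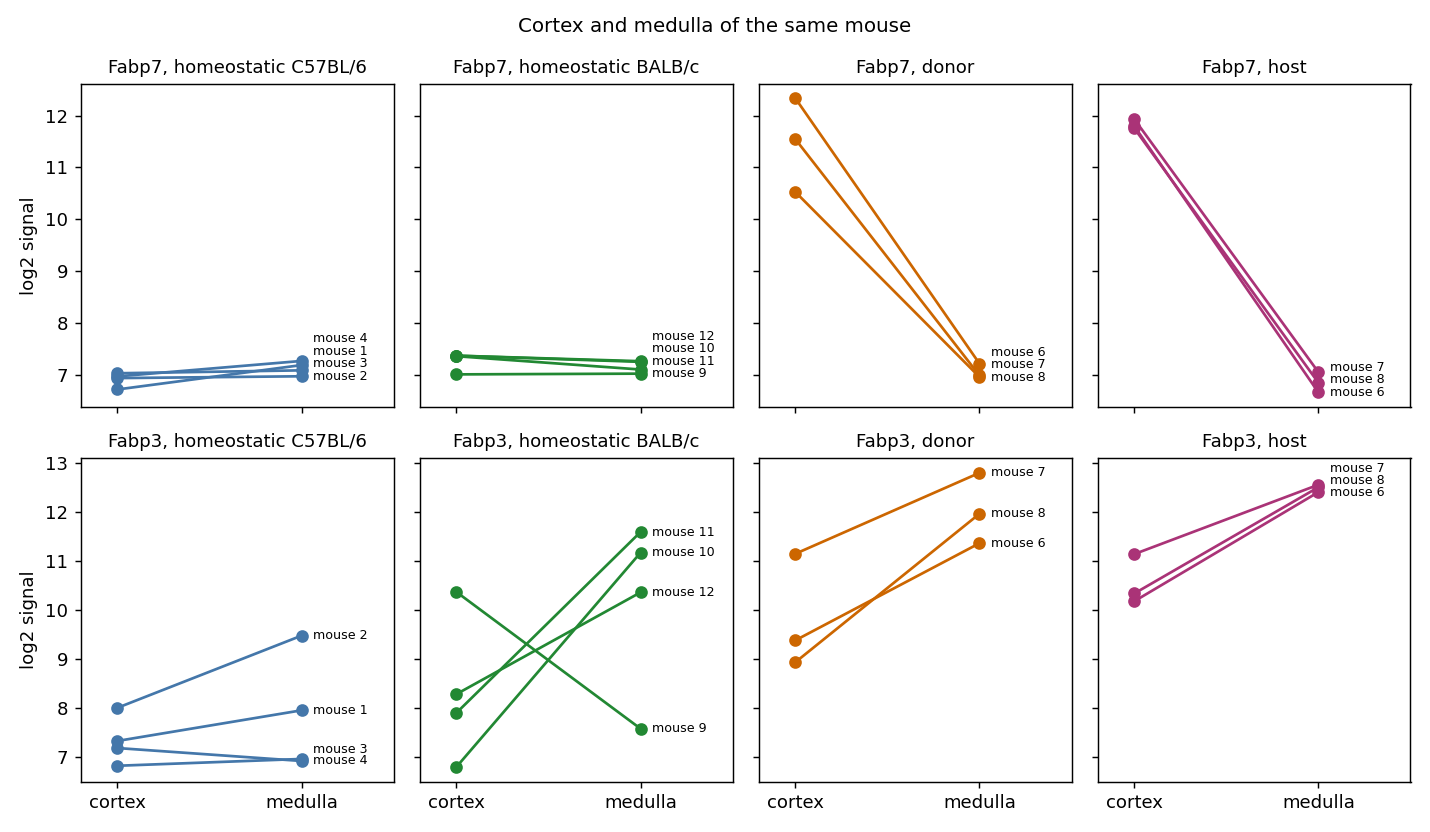
Log2 signal (vertical axis) of Fabp7 (upper row) and Fabp3 (lower row) in cortex and medulla (horizontal axis), with a line joining the arrays of 1 mouse, for homeostatic C57BL/6, homeostatic BALB/c, donor and host cells. All 6 graft lines fall for Fabp7 and all 6 rise for Fabp3, and the homeostatic BALB/c line of mouse 9 runs against those of mice 10, 11 and 12 for Fabp3.

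Fabp4, the adipocyte and macrophage carrier and a target gene of PPARγ, differed less. Host medulla gave 10.20, 9.74 and 8.48 and host cortex 7.92, 8.84 and 8.34, all above the homeostatic C57BL/6 arrays of the same region, which spanned 7.93 to 8.34 in medulla and 7.54 to 7.87 in cortex. The mean differences were 1.38 ± 0.43 log2 units in medulla and 0.69 ± 0.43 in cortex. Donor cells were scattered, at 9.12, 9.20 and 7.74 in cortex and 9.90, 8.69 and 7.61 in medulla, and overlapped homeostatic BALB/c cells in both regions. Arrays of mouse 8 were the lowest donor arrays for Fabp4 in both regions and the lowest host array in medulla. Homeostatic C57BL/6 medulla lay above cortex without overlap, by 0.42 ± 0.40. Every neighbouring pair in the order of the 8 Fabp4 means overlapped.

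Fabp5, the epidermal-type carrier also found in macrophages and dendritic cells, was above the 40th percentile in all 28 arrays. Its range over all arrays, 7.65 to 10.23, was narrower than that of Fabp3 or Fabp7. Donor medulla gave 10.23, 9.36 and 8.65 against 8.48, 8.49 and 8.46 in donor cortex, a difference of 0.93 ± 0.44, and host medulla gave 8.80, 9.00 and 9.36 against 8.68, 8.18 and 7.87 in host cortex, a difference of 0.81 ± 0.44. Medulla exceeded cortex in all 6 graft pairs, by 0.12 to 1.74 log2 units, as for Fabp3 and opposite to Fabp7. It did so in all 4 homeostatic C57BL/6 mice as well, by 0.18 to 1.34, but in homeostatic BALB/c mice the pairs ran from -0.98 to 0.05. Donor medulla exceeded homeostatic BALB/c medulla by 1.40 ± 0.41 without overlap. Homeostatic C57BL/6 medulla was nearly as high (8.86 ± 0.91, SD, n = 4) as host medulla (9.05 ± 0.29, SD, n = 3), and neighbours in the order of means overlapped throughout.

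Fabp1, the liver-type carrier, was dim. Group means ran from 5.10 to 5.75, and it did not pass the filter on dim genes, as it lay above the 40th percentile in 1 array, homeostatic C57BL/6 cortex of mouse 1 (7.39). All other arrays were at most 6.09. Of the other family members on the array, Fabp2, Fabp6, Fabp9, Fabp12 and Pmp2 (the myelin form) failed the same filter.

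Counted over the 5 members, the groups did not overlap for 3 in donor medulla against donor cortex and for 3 in host medulla against host cortex, in each case Fabp3 and Fabp5 higher and Fabp7 lower. The donor separation of Fabp5 rests on its brightest probeset. In its second probeset, donor medulla (lowest 8.10) and donor cortex (highest 8.11) overlapped. Of all genes tested, 15.9% and 17.5% were apart in these comparisons. Host against homeostatic C57BL/6 cells separated Fabp3, Fabp4 and Fabp7 in cortex (14.9% of genes) and Fabp3 and Fabp4 in medulla (24.3%). Donor against homeostatic BALB/c cells separated Fabp7 alone in cortex (29.9%) and Fabp5 alone in medulla (15.3%). No member was apart between donor and host cells in cortex (7.42%) or medulla (8.32%). In homeostatic kidneys, Fabp4 was apart between regions in C57BL/6 mice (4.22%) and none in BALB/c mice (2.39%). Between strains none was apart in cortex (22.4%) and Fabp1 in medulla (23.5%). Fabp1 is not among the genes tested, which these shares cover. Its medulla arrays read 5.03 to 5.17 in C57BL/6 and 5.24 to 5.45 in BALB/c mice, so this separation lies among dim values. The members were chosen on these contrasts, so their counts carry no weight beyond description.

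Over the 28 arrays, Fabp3 and Fabp4 had a Pearson r of 0.60 and Fabp4 and Fabp5 of 0.46, and Fabp7 had 0.13 with Fabp3, 0.18 with Fabp4 and -0.13 with Fabp5. These correlations share the groups, the arrays and their normalization. The genes most like Fabp7 were Enpp3 (r = 0.94), an ectonucleotide pyrophosphatase, Ubd (0.93), a ubiquitin-like modifier induced by cytokines, Cyp4a14 (0.92), a fatty acid omega-hydroxylase, Rdh16f2 (0.92), of the retinol dehydrogenase family, and Adtrp (0.91), a hydrolase of fatty acid esters. Cyp4a14 gave 10.06, 11.80 and 12.69 in donor cortex and 9.74, 11.58 and 12.02 in host cortex, against 6.66 to 7.57 in the 22 other arrays. Enpp3 and Ubd were likewise low in every group outside graft cortex, with group means of at most 5.81 and 6.69. Within the 6 graft cortex arrays the rank of arrays was not shared: Fabp7 had an r of -0.72 with Cyp4a14 and of 0.71 with Enpp3. The genes most like Fabp3 were Paqr5 (0.91), a membrane progestin receptor, Me3 (0.91), the mitochondrial malic enzyme, Stxbp4 (0.90), a syntaxin-binding protein, Ppp1r1a (0.90), an inhibitor of protein phosphatase 1, and Mal (0.90), a proteolipid of apical epithelial membranes. Likeness was weaker for Fabp4, led by Neo1 (0.81), and for Fabp5, led by Pdzd11 (0.68), and for Fabp1, led by Slc18a1 (0.78), it rested on low levels and 1 array.

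**Figure D3:**
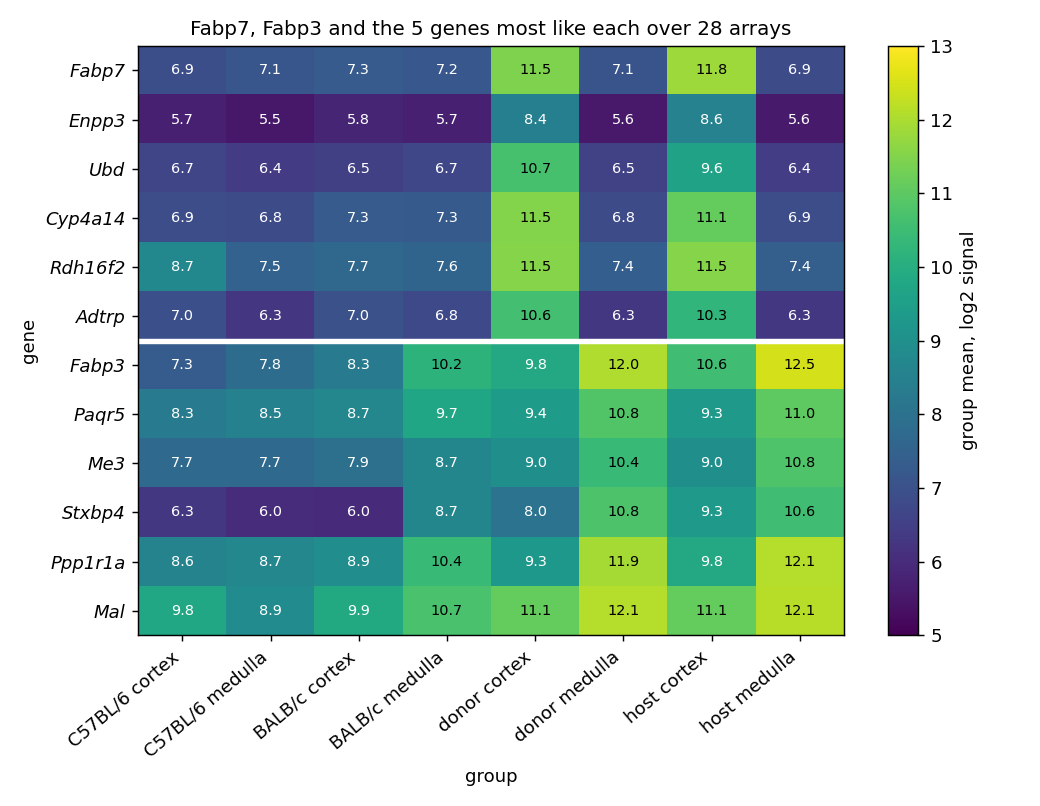
Group means in log2 signal (colour scale and printed values) of Fabp7 and Fabp3, each above the 5 genes with the highest Pearson r to it over 28 arrays (rows), in the 8 groups (columns). The Fabp7 rows are bright in donor and host cortex only, and the Fabp3 rows are brightest in donor and host medulla; levels are to be read along a row, since probesets of different genes are not comparable.

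Markers of kidney epithelium moved with both patterns. Fewer cells of a type and less RNA per cell cannot be told apart in such bulk samples. Of 8 convoluted proximal tubule genes, 7 were measured, and all 7 lay above the 40th percentile in every graft cortex array. Their mean log2 signal was 10.57 to 11.57 in donor cortex and 9.76 to 11.76 in host cortex, against 7.93 to 10.04 in homeostatic C57BL/6 cortex, 7.41 to 8.56 in homeostatic BALB/c cortex and group means of 7.23 to 7.53 in the 4 medulla groups. Over 28 arrays Fabp7 had an r of 0.85 with this list, of 0.93 over the 12 graft arrays and of -0.44 within the 6 graft cortex arrays. Outside graft cortex, Fabp7 was too dim for a correlation to be read. The straight proximal tubule list was 9.00 to 9.67 in donor cortex, above 7.76 to 8.95 in homeostatic BALB/c cortex. It was 9.20 to 9.69 in host cortex, which overlapped 8.50 to 9.29 in homeostatic C57BL/6 cortex. Schwann and glial markers, of which 4 of 6 were measured, stayed between group means of 6.68 and 7.33, and adipocyte markers, 5 of 7 measured, between 6.95 and 7.41. The part of tubule RNA in the Fabp7 levels was not tested.

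For Fabp3, the epithelium-wide list (8 of 8 measured, among them Epcam, Cdh1 and keratins) had group means of 9.93 in donor medulla, 10.17 in host medulla, 9.38 and 9.42 in donor and host cortex, and 8.14 to 8.75 in the homeostatic groups. Fabp3 had an r of 0.86 with it over 28 arrays, 0.81 within the 12 graft arrays and 0.72 within the 16 homeostatic arrays. The last pools 2 strains: it was 0.75 within the 8 BALB/c arrays and was not computed for C57BL/6 alone. In C57BL/6 mice the highest list mean, 8.55 in cortex replicate 1, went with Fabp3 at 7.32. The highest Fabp3 signal, 9.48 in medulla replicate 2, went with a list mean of 8.22. Umod, which encodes uromodulin of the thick ascending limb and was picked after its values were seen, was at 7.97 in the homeostatic BALB/c medulla array of mouse 9 and at 12.20 to 12.97 in the others of that group, as Fabp3 was low in the first and high in the others. The r between Fabp3 and Umod was 0.90 over the 8 homeostatic BALB/c arrays, 0.58 over the 16 homeostatic arrays, 0.72 over the 12 graft arrays and 0.14 within graft cortex. With the list of the loop of Henle and distal tubule, which holds Umod, Fabp3 had an r of 0.35 over the homeostatic arrays and of -0.17 over the graft arrays. Leukocyte-wide markers went the other way, with means of 8.92 in host medulla and 11.93 in medulla of homeostatic C57BL/6 mice. The sort markers Ptprc (CD45) and Itgax (CD11c) read 9.67 and 7.66 in host medulla, compared with 12.79 and 11.09 in medulla of homeostatic C57BL/6 mice. In donor medulla Ptprc was at 11.23, H2-Ab1 at 10.77 and Itgax at 7.38, against 12.52, 11.87 and 8.43 in medulla of homeostatic BALB/c mice. H2-Ab1 and Itgax overlapped between these groups, and Ptprc did not. H2-Ab1 (MHC class II) read 9.54 in host medulla, and 13.24 in medulla of homeostatic C57BL/6 mice. In cortex, Ptprc, Itgax and H2-Ab1 read 11.71, 9.15 and 11.75 in host cells and 12.79, 11.32 and 13.22 in homeostatic C57BL/6 cells. They read 12.03, 10.02 and 11.14 in donor cortex and 12.60, 10.47 and 11.99 in homeostatic BALB/c cortex, where Ptprc and Itgax overlapped between the groups. Fabp4 followed the epithelium-wide list with an r of 0.71 within graft arrays and of -0.11 within homeostatic arrays. The part of epithelial RNA in the Fabp3 and Fabp4 levels was not tested.

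**Figure D4:**
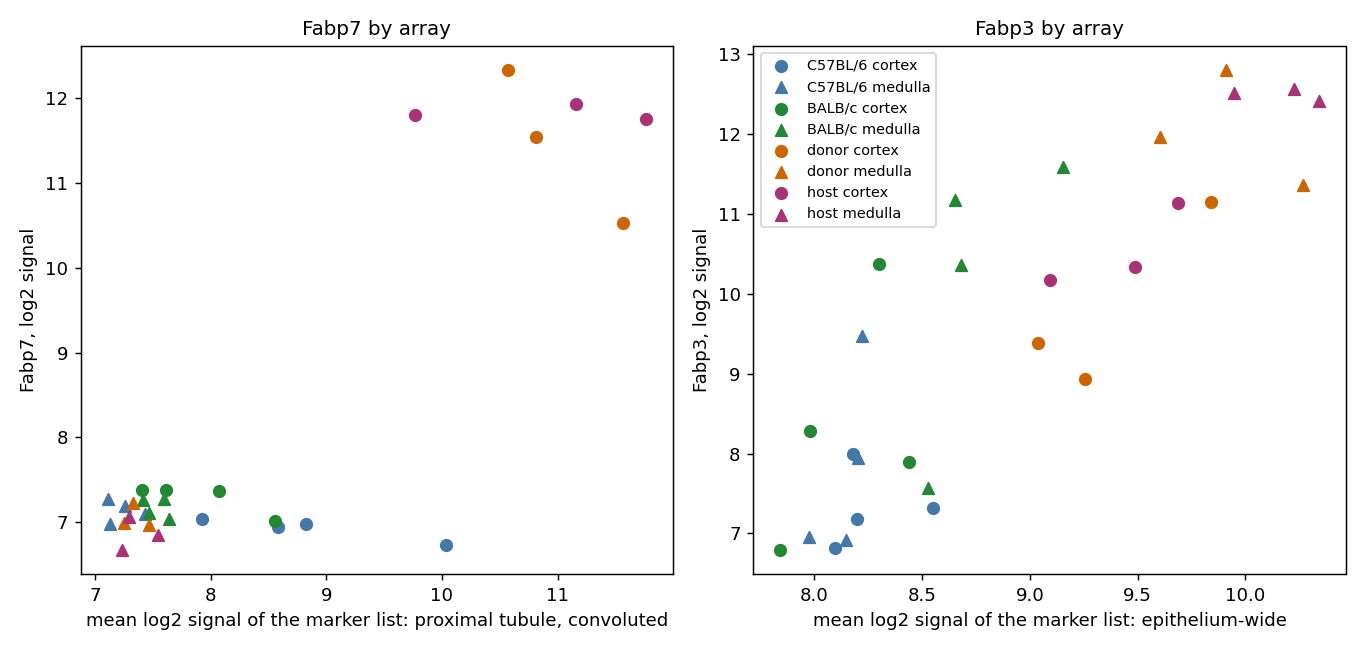
Log2 signal of Fabp7 against the mean log2 signal of 7 convoluted proximal tubule markers (left), and of Fabp3 against 8 epithelium-wide markers (right), with 1 point per array, circles for cortex and triangles for medulla. On the left the 6 graft cortex arrays form a separate set with no rise inside it. On the right Fabp3 rises along the list within graft arrays and over the homeostatic arrays of both strains pooled.

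The genes that act around these carriers were tested with limma over 14325 genes, at an adjusted p under 0.05 (Benjamini-Hochberg over all genes tested). Of 108 genes in 6 lipid-handling lists, 85 could be tested. In donor cells, 10 of the 85 were lower in medulla than in cortex and none was higher, against 1.92% and 0.628% of all genes. Host cells gave the same counts, 10 lower and 0 higher, against 2.43% and 1.86%. The convoluted proximal tubule list was lower in the same medulla arrays, at 7.25 to 7.47 in donor medulla against 10.57 to 11.57 in donor cortex and 7.23 to 7.55 in host medulla against 9.76 to 11.76 in host cortex. The part of tubule RNA in these regional differences was not tested. In homeostatic cells 1 was lower in C57BL/6 medulla (0.147% of all genes lower and 0.00698% higher; 2 lipid genes with mouse as a block) and limma called 0 in BALB/c mice, where 8 had an unadjusted p under 0.05 and 0.0209% of all genes were higher and 0.0489% lower. Leaving out donor medulla replicate 1 or 3 left 6 donor genes, and the C57BL/6 count ran from 0 to 3 over arrays left out (0 without replicate 1, 2 or 4 of either region, 3 without cortex replicate 3, 2 without medulla replicate 3). Whether donor or host cells differed from homeostatic cells in these regional differences was not tested.

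Among nuclear receptors of fatty acids and their targets, the omega-hydroxylases Cyp4a14 and Cyp4a10 fell from cortex to medulla, where Fabp7 was lower. The tubule receptor gene Cubn, a convoluted proximal tubule marker, was also lower there, at 6.37 ± 0.04 against 11.19 ± 0.07 in donor cells and 6.53 ± 0.11 against 10.62 ± 0.56 in host cells (SD, n = 3). Cyp4a14 fell by 4.68 ± 0.46 log2 units in donor cells (adjusted p = 1.54e-06) and fell by 4.23 ± 0.46 in host cells (adjusted p = 3.22e-06), in limma. Cyp4a10 fell by 4.58 ± 0.45 in donor cells and fell by 3.33 ± 0.45 in host cells (adjusted p = 5.16e-05 in host cells, 0.0506 with the 2 host groups fitted alone). Both genes lay below the limit for dim genes (7.27 to 7.63) in every graft medulla array. Cyp4a14 read 6.69 to 7.10 there and Cyp4a10 read 6.05 to 6.59. The tests thus set graft cortex, where both are high, against dim arrays, and no fold of RNA is given. Cyp4a14 was also picked as 1 of the 5 genes most like Fabp7, so its shared course is no separate evidence. Against homeostatic cells of the same strain, Cyp4a14 rose by 4.23 ± 0.43 in donor cortex and by 4.23 ± 0.43 in host cortex. It was higher in 6 of 6 graft cortex arrays than in any homeostatic array. Its homeostatic cortex arrays read 6.83 to 7.47, near or below that limit. Pparg, the receptor that drives Fabp4 and Cd36 in adipocytes and macrophages, fell by 1.74 ± 0.33 in donor cortex (adjusted p = 0.00133, 0.0694 with these groups fitted alone) and fell by 1.68 ± 0.33 in host cortex (adjusted p = 0.00334). In host medulla it fell by 1.24 ± 0.33 (adjusted p = 0.0139, 0.085 without host medulla replicate 2). Ppargc1a, the coactivator of mitochondrial biogenesis, rose in host medulla from 8.00 ± 1.51 (SD, n = 4) to 12.37 ± 0.11 (SD, n = 3), a change of 4.38 ± 0.94 (limma adjusted p = 0.00258). In the same comparison the epithelium-wide list was higher (9.95 to 10.34 against 7.98 to 8.22) and mean Ptprc lower (9.67 against 12.79). The part of epithelial and leukocyte RNA in the Pparg and Ppargc1a changes was not tested.

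Of the 12 uptake and activation genes tested, Cd36, the scavenger receptor that takes up fatty acids, changed against the direction of Fabp3. It read 7.96, 6.83 and 6.24 in host medulla and 10.41, 11.21 and 12.01 in host cortex, and 8.72, 7.80 and 7.27 in donor medulla and 12.52, 11.71 and 12.03 in donor cortex. From cortex to medulla Cd36 fell by 4.20 ± 0.45 in host cells (limma adjusted p = 2.37e-06). In donor cells it fell by 4.16 ± 0.45 (adjusted p = 4.04e-06). Against homeostatic medulla it fell by 4.86 ± 0.42 in host cells (adjusted p = 3.9e-08) and fell by 2.73 ± 0.42 in donor cells (adjusted p = 0.000962, 0.139 with these groups fitted alone). Slc27a2, a fatty acid transporter of the proximal tubule, fell from 13.22 ± 0.05 in donor cortex to 8.20 ± 0.94 in donor medulla (SD, n = 3; limma adjusted p = 0.00128). It was at 12.85 ± 0.38 (SD, n = 4) in homeostatic C57BL/6 cortex, where Fabp7 was low, and at 9.00 ± 1.59 in medulla of these mice. Homeostatic BALB/c cells gave 11.53 ± 1.41 in cortex and 9.02 ± 0.77 in medulla. Slc27a2 was thus lower in medulla in homeostatic kidneys too, and it was the 1 lipid-handling gene called between regions in homeostatic C57BL/6 cells. Vldlr, a lipoprotein receptor, rose by 3.30 ± 0.80 in host medulla (adjusted p = 0.00693, 0.0542 without host medulla replicate 3). The part of epithelial and leukocyte RNA in the Cd36, Slc27a2 and Vldlr changes was not tested.

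Against homeostatic cells of the same strain and region, 22 of the 85 genes were higher in donor cortex and 5 lower (7.91% and 16% of all genes), 3 and 1 in donor medulla (1.73% and 1.45%), 9 and 1 in host cortex (2.02% and 2.15%), and 11 and 3 in host medulla (6.28% and 5.22%). Tubule markers were higher in the same cortex comparisons, the convoluted list at 10.57 to 11.57 in donor cortex against 7.41 to 8.56 in homeostatic BALB/c cortex, and the epithelium-wide list at 9.04 to 9.84 against 7.84 to 8.44. The epithelium-wide list was also higher in host cortex (9.09 to 9.69 against 8.10 to 8.55), host medulla (9.95 to 10.34 against 7.98 to 8.22) and donor medulla (9.60 to 10.27 against 8.53 to 9.15), and the part of epithelial RNA in the counts was not tested. A second quantile normalization gave 9 higher and 4 lower in donor cortex. Single arrays moved these totals by over 1.5 times: donor cortex gave 8 without donor replicate 2, 13 without donor replicate 1, 17 and 12 without homeostatic replicates 3 and 4; donor medulla gave 1 without donor replicate 2 or homeostatic replicate 1 or 4 and 11 without homeostatic replicate 3; host cortex gave 5 without host replicate 2 or 3 or homeostatic replicate 3 and 6 without homeostatic replicate 4; and host medulla gave 9 without host replicate 2 or homeostatic replicate 4.

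Of the 23 fatty acid oxidation genes tested, 8 rose and none fell in donor cortex, 7 rose and none fell in host medulla, 3 rose in host cortex and 2 in donor medulla. Of all genes tested, 7.91% rose and 16% fell in donor cortex, and 6.28% rose and 5.22% fell in host medulla. In host cortex 2.02% rose and 2.15% fell, and in donor medulla 1.73% rose and 1.45% fell. The median difference of the list was 1.24 log2 units in donor cortex and 1.46 in host medulla, against -0.13 and 0.07 for all genes tested, and 0.90 and 1.40 after a second quantile normalization. Leaving out 1 array gave 1 to 13 calls in donor cortex (1 without donor replicate 2, 2 without donor replicate 1, 13 without homeostatic replicate 1, and 4, 5 and 3 without homeostatic replicates 2, 3 and 4) and 3 to 5 in host medulla (3 without host replicate 2 or homeostatic replicate 4, 4 without homeostatic replicate 1 or 3). The host cortex count was 0 without host replicate 2 or 3 or homeostatic replicate 2, 3 or 4, and 7 without host replicate 1. The donor medulla count was 0 without donor replicate 1 or 2 or homeostatic replicate 1 or 4, 1 without donor replicate 3 and 4 without homeostatic replicate 3. In host medulla, the thiolase Acaa2 rose by 2.69 ± 0.45 (limma adjusted p = 0.000214), the very long-chain dehydrogenase Acadvl by 1.84 ± 0.35 (adjusted p = 0.000863) and Etfb, of the electron transfer flavoprotein, by 1.84 ± 0.43 (adjusted p = 0.00499). In donor cortex the dehydrogenase Hadh rose by 2.35 ± 0.54 (adjusted p = 0.00442). Ehhadh, the peroxisomal bifunctional enzyme, fell by 2.65 ± 0.52 from cortex to medulla in host cells (adjusted p = 0.00276). Epithelium-wide markers were higher in the same groups, as given above, and their part in these changes was not tested.

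In storage and synthesis, Lipa, the lysosomal acid lipase abundant in macrophages, fell by 3.21 ± 0.49 in host medulla against homeostatic C57BL/6 medulla (limma adjusted p = 7.58e-05), alongside the leukocyte-wide list. The elongase Elovl6 rose there by 3.56 ± 0.68 (adjusted p = 0.000873), alongside the epithelium-wide list. The part of epithelial and leukocyte RNA in the Lipa and Elovl6 changes was not tested. Fads2, a fatty acid desaturase, rose by 2.47 ± 0.39 in host cortex (adjusted p = 0.000366) and fell by 2.39 ± 0.42 from host cortex to host medulla (adjusted p = 0.000867). Me1, the cytosolic malic enzyme that supplies NADPH for lipid synthesis, fell from 11.56 ± 0.72 in donor cortex to 7.76 ± 0.27 in donor medulla (SD, n = 3; limma adjusted p = 0.00107). Of the 8 other intracellular lipid-binding proteins tested, limma called 2 higher and 2 lower in donor cortex than in homeostatic BALB/c cortex (7.91% and 16% of all genes). The retinol carrier Rbp2 fell there by 0.99 ± 0.22 (limma adjusted p = 0.00374). Rbp2 was dim, above the 40th percentile in 9 of the 28 arrays. Dbi and Scp2 rose there, by 1.33 to 1.76 and by 1.05 to 1.67 over arrays left out. Dbi also rose in donor medulla, by 1.35 to 2.47 over arrays left out. In host cells limma called none of the 8 in cortex, in medulla or between regions, against the shares of all genes given above.

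Between strains, 3 of the 85 genes were higher and 1 lower in homeostatic BALB/c than in C57BL/6 cortex (7.87% and 1.93% of all genes; 1 higher and 2 lower after a second quantile normalization), and 7 were higher and 1 lower in medulla (6.47% and 2.63%). The cortex total was 2 without replicate 1 or 2 of C57BL/6 or replicate 3 or 4 of BALB/c, and 7 without replicate 1 or 2 of BALB/c. The medulla total was 0 without replicate 3 of C57BL/6 or replicate 1 of BALB/c, the array of mouse 9, 2 without replicate 2 or 4 of C57BL/6, 4 without replicate 4 of BALB/c, and 15 and 16 without its replicates 2 and 3. Hadh fell by 2.17 ± 0.50 in BALB/c cortex (limma adjusted p = 0.0103). Donor and host cells differed in 1 gene in cortex, Ppara, the receptor of hepatic and renal fatty acid oxidation, higher in donor cells by 1.27 ± 0.28 (limma adjusted p = 0.0407; 0.37% of all genes were higher and 0.126% lower), a call lost with these groups fitted alone, after a second quantile normalization, and without donor replicate 2 or 3 or any of the 3 host replicates, with adjusted p up to 1.00. In medulla limma called 0 (0.419% of all genes higher and 0.175% lower), and 3 of the 85 had an unadjusted p under 0.05.

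**Figure D5:**
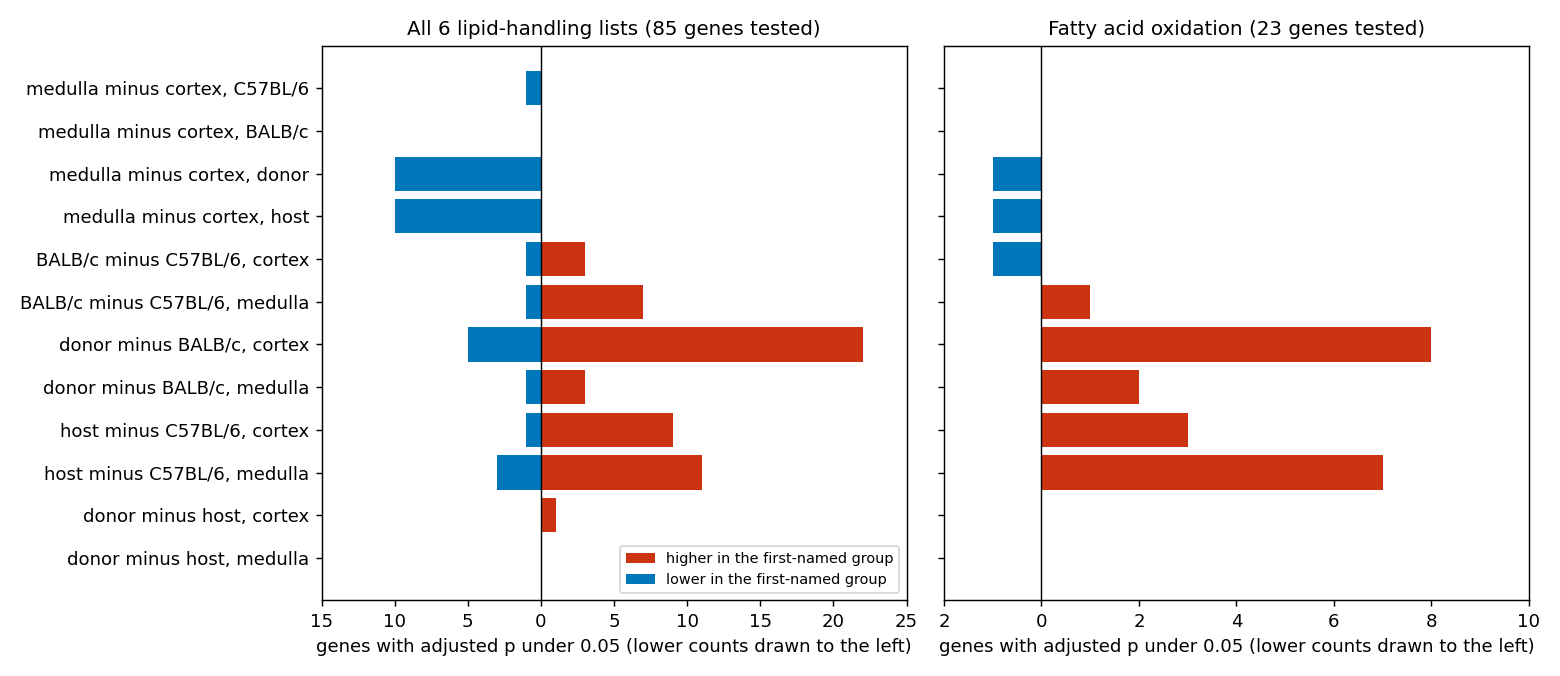
Number of genes (horizontal axis) with an adjusted p under 0.05 in limma, in the 12 comparisons (vertical axis), higher (red, right) or lower (blue, left) in the first-named group, for all 6 lipid-handling lists without the 5 members (left) and for fatty acid oxidation (right). Donor cortex against homeostatic BALB/c cortex has the most, 22 higher and 5 lower, where 7.91% of all genes were higher and 16% lower. Both medulla-cortex comparisons of grafts have 10 lower and 0 higher, where 1.92% (donor) and 2.43% (host) of all genes were lower.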

How the data were processed

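Total RNA of sorted kidney dendritic cells from 28 samples was amplified and hybridised, per the labels' protocols. The authors deposited log2 array signal; the submitters' processing notes name RMA, which corrects background, equalises quantiles and summarises probes, and the software oligo, without a version. Values were used as deposited. RMA quantile normalization assumes like distributions over arrays, and differences of dim genes are compressed.

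Of 22549 probesets, 20646 with 1 symbol were used (551 had several, 1352 none), and the brightest by mean over all arrays was kept for each of 19272 symbols. Genes above the 40th percentile of their array in at least 3 arrays were tested (14325, with 4 of the 5 members). Groups were compared in limma 3.58.1 (R 4.3.3) with 1 mean per group, 20 residual degrees of freedom and Benjamini-Hochberg adjustment. The SE of a member's difference comes from this fit. In simulated data for donor medulla against cortex on 14325 genes, 42% of differences of size 1 and 80% of size 2 (log2) were recovered. The simulation changed 100 genes at each size and drew independent normal noise for each array. Real arrays of 1 graft are correlated and real comparisons differ in the number of changed genes, so these rates hold for the simulation only. The number of arrays limits the precision, and p-values measure the spread between these mice.

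The members, the lists and the tests were chosen with earlier results of these data known. Named genes are the members, up to 3 called genes with the smallest adjusted p per list and comparison, the 5 genes with the highest r to each member, and 3 sort markers. Umod was added after its values were seen, and Cubn was picked from the convoluted proximal tubule list outside these rules. Some genes, Ehhadh among them, stand in 2 lists. Mouse numbers of the labels pair samples of 1 animal: residuals of same-mouse arrays correlated at 0.155 between regions of donor cells, 0.106 between those of host cells, and 0.22 in cortex and 0.171 in medulla across origins, and at -0.003 and -0.006 in homeostatic C57BL/6 and BALB/c mice. Alternatives were mouse as a random block (consensus correlation 0.134), no filter, the compared groups fitted alone, a second quantile normalization, the mean of a gene's probesets, and leaving out each array. Promoter windows are those of RefSeq for GRCm38.p6, which held 3 of the 5 members; gene order is from the RefSeq gene table.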

Additional observations from a re-analysis of the deposited data

Results flagged for a closer look

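In homeostatic BALB/c cortex, the Fabp7 signal of replicate 1 (mouse 9), 7.02, stood apart from the other 3 arrays at 7.37 to 7.38. Among 20 groups of 4 arrays looked at in this way, about 1 in 20 is singled out by chance.

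For Fabp7, the mean within-mouse difference of medulla minus cortex was 0.21 log2 units in homeostatic C57BL/6 mice, with all 4 mice above 0, and -4.41 in donor cells and -4.96 in host cells, with all 3 grafts below 0 for each. This difference between groups was not tested, since Fabp7 was chosen for it. All 8 homeostatic C57BL/6 arrays lay below the limit for dim genes, so no direction is read from them.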

How the results depend on the processing

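Under a second quantile normalization or the mean of the probesets, no member whose groups were apart changed direction. Of 540 member differences, 6 moved by more than the replicate SD, all under the second normalization. For a member with 1 probeset, the mean of the probesets changes nothing. Leaving out 1 array gave 420 of the 540, all of them unmoved. Such a step cannot shift a mean by 1 SD or reverse groups that are apart, so these 420 are no check. With mouse as a random replicate block, the lipid-handling count in homeostatic C57BL/6 medulla against cortex was 2 in place of 1, and no other count moved by over 1.5 times. With the compared groups fitted alone, which leaves fewer residual degrees of freedom, the counts were 0 (C57BL/6 regions), 4 (host regions), 0 (strains, medulla), 8 (donor against BALB/c cortex), 0 (donor against BALB/c medulla), 4 (host against C57BL/6 cortex) and 0 (donor against host cortex). Without the filter, strain counts were 13 in cortex and 18 in medulla. After a second quantile normalization, counts were 13 (donor against BALB/c cortex), 6 (host against C57BL/6 cortex) and 0 (donor against host cortex); the cause was not tested. Leaving out 1 array gave 0 to 3 in C57BL/6 regions, 6 to 10 in donor regions, 7 to 10 in host regions, 2 to 7 and 0 to 16 between strains in cortex and medulla, 8 to 29 and 1 to 11 for donor against BALB/c cortex and medulla, 5 to 13 and 9 to 14 for host against C57BL/6 cortex and medulla, and 0 to 1 for donor against host cortex. Levels below the 40th percentile have no detection call, which limits Fabp1 everywhere and Fabp7 outside graft cortex.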
